A study of Mus musculus with 16 samples.

Results

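The genes of sterol and fatty acid synthesis were followed through 16 whole-lung arrays of mice given a blocker of the Cav1 transcript or a control blocker, and then bleomycin, whose lung injury ends in scarring, or phosphate-buffered saline (PBS). The list held 33 genes named by function and was chosen with earlier results of these data known. Each gene was represented by the array spot with the highest mean signal, and 32 of the 33 had a spot among 20863 genes with one, while Acat2 matched none. All 32 passed the filter on dim genes that left 20304 genes for testing. At a limma adjusted p under 0.05, bleomycin under the control blocker gave 4 members called lower (Acly, Mlxipl, Lpin1 and Insig1) and 0 higher. Over all genes, 0.448% were called lower and 1.96% higher. With a mean of adipocyte markers as a covariate, 0 of the 4 were called, in a fit that called 8 genes in all against 489 without the covariate. After bleomycin, Gpam was the only member called higher with the CAV1 blocker, where 1.2% of all genes were. A second Gpam spot was 0.16 higher (SE 0.0916) and was not called.

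Cells build cholesterol from acetyl-CoA through mevalonate, farnesyl diphosphate, squalene and lanosterol, and they build fatty acids from the same precursor through malonyl-CoA. The SREBP transcription factors switch on both sets of enzymes when membrane cholesterol is low: Scap carries them out of the endoplasmic reticulum, and the Insig proteins hold them back. In the lung, alveolar type 2 cells make fatty acids for the phospholipids of surfactant, and macrophages take up and export surfactant lipids. Adipocytes, which can be taken along with a lung, make fatty acids at a high rate.

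All animals were C57BL/6 mice aged 9 to 12 weeks. Every lung had received a blocker through the trachea on 3 occasions, on days 4 and 2 ahead of bleomycin or PBS and again 4 days afterwards. Such a blocker is an oligonucleotide that pairs with the place on a transcript where a microRNA would bind, here on Cav1, and was given at 5 mg/kg. The dose of the control blocker was not stated in the labels. Lungs given PBS made up 2 arrays for each blocker and lungs given bleomycin at 1 unit/kg 6 arrays for each, which makes 4 groups. The labels do not say that the arrays of a group came from separate animals, nor on which day the lungs were taken, and the spread behind each p-value may be technical. In tissue of mixed cells, fewer cells of a type and less RNA per cell cannot be told apart.

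Levels are log2 intensities as deposited, with array medians of 6.51 to 6.52 and a 25th percentile of 5.97 to 5.99 that serves here as a mark of dim signal. Any pair of arrays correlated at 0.973 to 0.996 over all spots, which are not independent replicates. Lung markers were high in every array (Sftpc of type 2 cells at 18.01 to 18.16, Ager of type 1 cells at 14.39 to 15.59). Cav1 itself lay at 10.47 to 10.98 after bleomycin with the control blocker and at 10.80 to 11.39 with the CAV1 blocker, a difference of 0.24 (SE 0.126, limma adjusted p = 0.642). Tissue makeup varied between arrays. The mean of 12 skeletal muscle markers was 9.99 to 12.51 in 11 arrays and 6.91 to 8.25 in the other 5, which were both PBS arrays with the CAV1 blocker, arrays 2 and 6 of bleomycin with the control blocker and array 3 with the CAV1 blocker. PBS control blocker array 2 and bleomycin CAV1 blocker array 6 also stood apart from their groups. Against the other arrays of their group, both were lower by over 0.3 for 7 of 32 members (21.9%, against 16.2% of all genes) and both higher by over 0.3 for 5 (15.6%, against 12.2%). Values without these arrays are given below for the members that moved most with them.

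Promoter windows are shown for the members that changed and for Hmgcs1, which carries the textbook SREBP site. RefSeq windows (GRCm38.p6, 250 bases before to 50 after the start) matched 26 of the 32 members, in 37 windows. Capitals mark matches on either strand to TCACNCCAC (sterol regulatory element, bound by SREBP), CACGTG (E-box), CCAAT (NF-Y) and GGGCGG (Sp1). No matches overlapped in the windows printed, which are Hmgcs1 (chr13:119690101-119690400, plus strand), Insig1 (chr5:28071162-28071461, plus strand), Acly (chr11:100527951-100528250, minus strand), both for Mlxipl (chr5:135089640-135089939 and chr5:135106641-135106940, plus strand), Lpin1 (chr12:16610917-16611216, minus strand, with no match) and the first of 2 for Gpam (chr19:55127189-55127488, minus strand).
Hmgcs1: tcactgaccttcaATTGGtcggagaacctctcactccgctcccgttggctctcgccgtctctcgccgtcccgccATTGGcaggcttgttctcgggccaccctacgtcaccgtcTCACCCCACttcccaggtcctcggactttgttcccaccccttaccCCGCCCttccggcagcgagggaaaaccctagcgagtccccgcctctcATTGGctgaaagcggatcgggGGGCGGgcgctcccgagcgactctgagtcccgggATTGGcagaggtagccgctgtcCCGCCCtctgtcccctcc
Insig1: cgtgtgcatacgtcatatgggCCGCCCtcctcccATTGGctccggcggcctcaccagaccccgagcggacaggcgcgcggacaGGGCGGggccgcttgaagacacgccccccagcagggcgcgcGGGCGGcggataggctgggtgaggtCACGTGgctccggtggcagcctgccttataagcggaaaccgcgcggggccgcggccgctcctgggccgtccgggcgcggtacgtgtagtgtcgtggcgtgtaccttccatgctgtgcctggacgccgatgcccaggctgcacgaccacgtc
Acly: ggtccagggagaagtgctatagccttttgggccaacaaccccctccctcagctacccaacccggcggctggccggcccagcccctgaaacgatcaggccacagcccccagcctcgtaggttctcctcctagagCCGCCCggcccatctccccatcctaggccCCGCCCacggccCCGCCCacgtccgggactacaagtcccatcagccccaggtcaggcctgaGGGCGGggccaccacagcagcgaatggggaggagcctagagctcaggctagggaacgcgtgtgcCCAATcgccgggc
Mlxipl, first: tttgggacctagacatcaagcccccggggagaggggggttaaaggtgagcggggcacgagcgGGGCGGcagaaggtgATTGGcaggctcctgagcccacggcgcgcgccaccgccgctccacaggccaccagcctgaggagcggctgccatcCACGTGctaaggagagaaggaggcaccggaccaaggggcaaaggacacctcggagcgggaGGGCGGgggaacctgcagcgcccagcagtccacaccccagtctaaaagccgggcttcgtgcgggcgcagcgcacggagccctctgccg
Mlxipl, second: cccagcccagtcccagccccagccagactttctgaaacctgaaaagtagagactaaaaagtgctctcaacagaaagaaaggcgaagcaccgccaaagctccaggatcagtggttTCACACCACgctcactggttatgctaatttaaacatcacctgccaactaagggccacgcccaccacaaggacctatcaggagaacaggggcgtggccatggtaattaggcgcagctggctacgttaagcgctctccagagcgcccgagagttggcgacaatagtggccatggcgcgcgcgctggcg
Lpin1: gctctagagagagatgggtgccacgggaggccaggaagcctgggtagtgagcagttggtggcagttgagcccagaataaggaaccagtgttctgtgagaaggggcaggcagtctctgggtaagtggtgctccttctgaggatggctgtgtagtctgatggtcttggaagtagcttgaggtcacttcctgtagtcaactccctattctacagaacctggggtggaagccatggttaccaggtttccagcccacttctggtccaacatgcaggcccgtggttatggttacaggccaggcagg
Gpam: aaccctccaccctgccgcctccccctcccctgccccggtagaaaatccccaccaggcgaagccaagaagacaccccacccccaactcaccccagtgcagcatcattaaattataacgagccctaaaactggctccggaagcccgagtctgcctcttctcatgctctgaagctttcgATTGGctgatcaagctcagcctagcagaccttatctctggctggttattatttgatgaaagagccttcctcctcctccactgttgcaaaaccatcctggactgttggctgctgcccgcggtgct
The sterol element was present in 2 of the 37 member windows, that of Hmgcs1 and the second of Mlxipl, and in 1.24% of all 32851 windows. The E-box stood in 7 member windows, those of Insig1 and Mlxipl among them, and in 7.15% of all windows. CCAAT stood in 23 member windows against 37.4% of all windows, and GGGCGG in 26 against 35.7%. The Lpin1 window held none of the 4 motifs. A match describes the letters of the window and does not show that a factor binds there.

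With the control blocker, Acly, Mlxipl, Lpin1 and Insig1 were lower after bleomycin, and no enzyme of the sterol pathway was called in either direction. These were 4 of the 32 members at a limma adjusted p under 0.05, and 0 were called higher. Over all genes tested, 0.448% were called lower and 1.96% higher, 2.41% in all. At an unadjusted p under 0.05, 8 members were lower and 2 higher, against 5.41% and 10.5% of all genes. In 9 members every bleomycin array lay below both PBS arrays and in 1 (Scd2) above both, against 4.04% and 8.55% of all genes. The median change of the members was -0.02 on the log2 scale and that of all genes 0.030, so the members' median lay close to it. Its 8 fatty acid synthesis genes had a median change of -0.50 and its 16 sterol pathway genes one of 0.03.

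**Figure D1:**
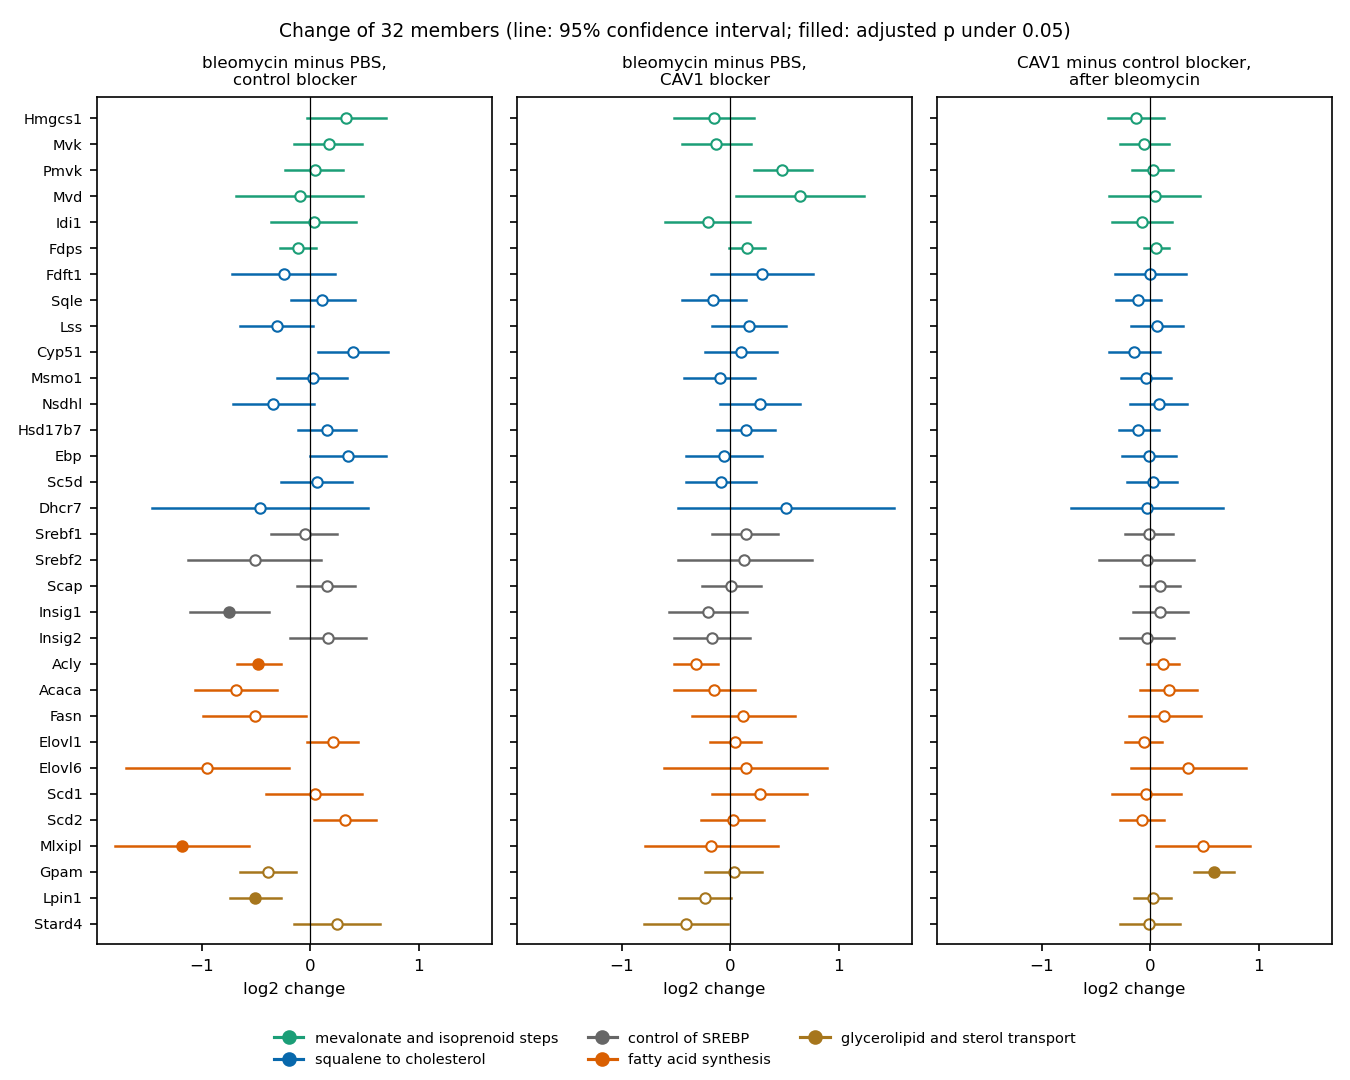
Log2 change of each of the 32 members (horizontal axis) in 3 comparisons, with 95% confidence intervals as lines and filled points where the limma adjusted p was under 0.05. Filled points are Insig1, Acly, Mlxipl and Lpin1 on the lower side with bleomycin under the control blocker, and Gpam on the higher side for the CAV1 blocker after bleomycin.

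Acly makes cytosolic acetyl-CoA from citrate, the step that feeds both pathways. It was 14.07 and 13.91 in the PBS arrays with the control blocker and 13.34, 13.65, 13.50, 13.57, 13.44 and 13.58 in bleomycin arrays 1 to 6. All 6 bleomycin arrays lay below both PBS arrays. The change was -0.48 (SE 0.0966, 95% confidence interval -0.68 to -0.27, limma adjusted p = 0.0235), and a second, dimmer Acly spot changed by -0.62 (SE 0.175). Acly was called in 15 of the 16 fits that each left out 1 array. Without PBS control blocker array 2 its change was -0.56 with an adjusted p of 0.0755 in limma.

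Mlxipl encodes ChREBP, a transcription factor that responds to carbohydrate and drives lipogenic genes. Its levels were 10.37 and 9.31 in the PBS arrays and 8.65, 8.32, 8.79, 8.89, 8.67 and 8.60 after bleomycin with the control blocker. The groups did not overlap, but the PBS arrays were more than 1 log2 unit apart. The change was -1.18 (SE 0.289, interval -1.80 to -0.57, limma adjusted p = 0.045), equal to a level 0.44 times that with PBS. It was called in 5 of the 16 fits without 1 array, with changes from -1.72 to -0.65 and limma adjusted p from 0.0332 to 0.168. The highest p came without PBS control blocker array 1, and the change was -1.72 (adjusted p = 0.0332) without array 2.

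The next enzymes of the pathway had lower levels with bleomycin and did not pass the threshold. Acaca, the acetyl-CoA carboxylase that commits carbon to fatty acids, was 13.26 and 13.02 with PBS and 12.48, 12.33, 12.64, 12.61, 12.30 and 12.38 with bleomycin. These groups also did not overlap, and the change was -0.69 (SE 0.176, limma adjusted p = 0.0542). Its 3 other spots had changes of -0.72, -0.34 and -0.45. Fasn, the fatty acid synthase, was 10.90 and 11.04 with PBS and 10.11 to 10.69 (median 10.48) with bleomycin. Its change was -0.51 (SE 0.222, limma adjusted p = 0.273), without overlap of the groups. Elovl6, which elongates palmitate, was 10.83 and 9.75 with PBS and 8.81 to 9.63 (median 9.53) with bleomycin. The change was -0.95 (SE 0.354, limma adjusted p = 0.194), and its PBS arrays differed from each other by about as much. In the fit that left out PBS control blocker array 2, limma gave -1.49 for Elovl6 (adjusted p = 0.189), -0.81 for Acaca (0.191) and -0.44 for Fasn (0.66).

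The desaturases and Elovl1 did not share this direction. Scd2, a stearoyl-CoA desaturase, was 14.63 and 14.38 with PBS and 14.66 to 14.96 (median 14.85) with bleomycin, a change of 0.32 (SE 0.135, limma adjusted p = 0.264). Scd1, the other desaturase, ranged from 14.80 to 15.92 over all arrays and its change was 0.04 (SE 0.208, limma adjusted p = 0.95). Elovl1, which elongates very long saturated chains, was among the brightest genes at 16.56 to 17.03, with a change of 0.21 (limma adjusted p = 0.39). A second Elovl1 spot had a change of -0.17, so its direction depended on the spot.

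**Figure D2:**
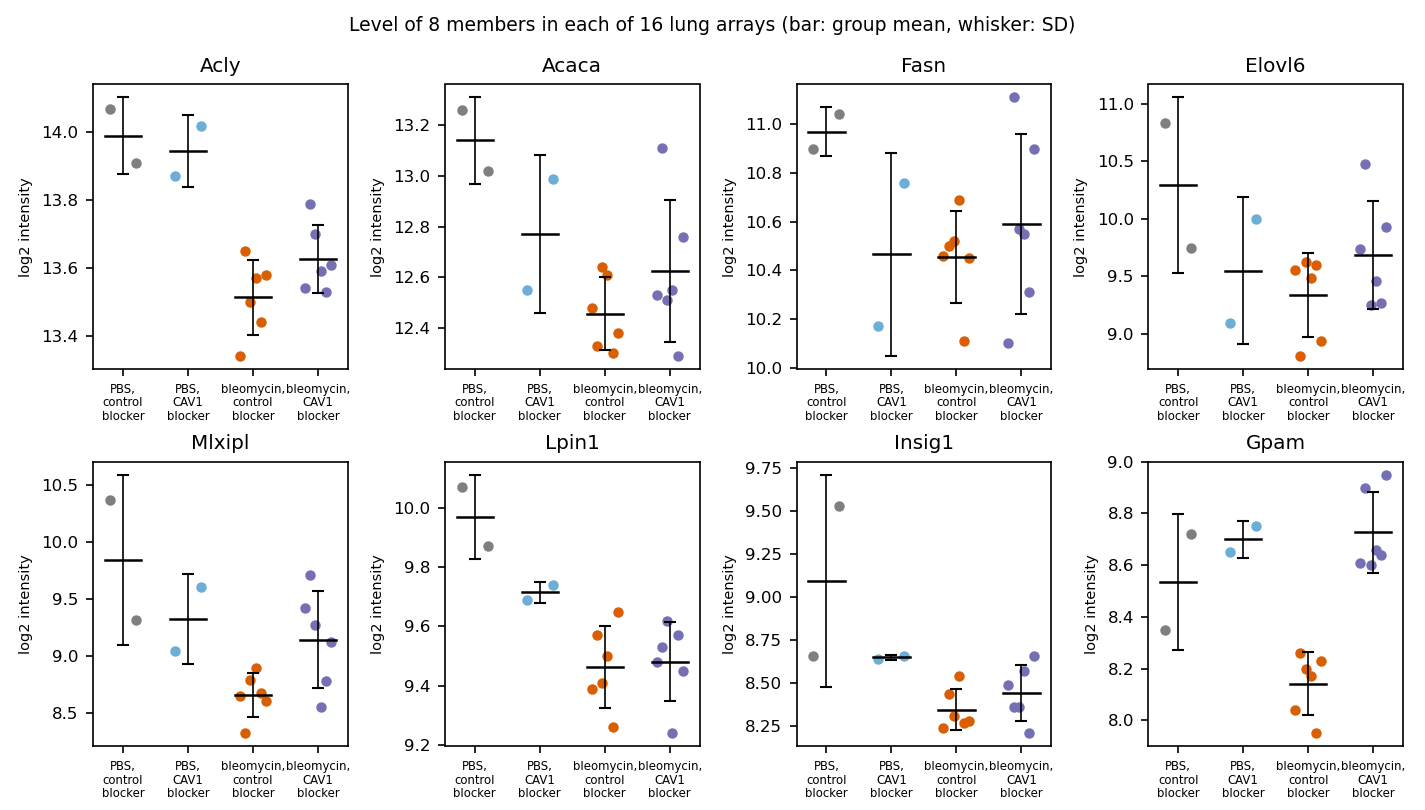
Log2 intensity of 8 members in each array by group, with the group mean (bar) and SD (whisker); each panel has its own vertical range, which does not start at 0. Acly, Acaca, Fasn, Elovl6, Mlxipl, Lpin1 and Insig1 lay lower in every bleomycin array with the control blocker than in both PBS arrays with it, and Gpam separated the blockers after bleomycin.

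Lpin1 and Gpam act where fatty acids are built into glycerolipids. Lpin1, a phosphatidate phosphatase that also acts as a transcriptional coactivator, was 10.07 and 9.87 with PBS and the control blocker. After bleomycin it was 9.26 to 9.65 (median 9.45), with every array below both PBS arrays. The change was -0.51 (SE 0.111, interval -0.74 to -0.27, limma adjusted p = 0.0302). It was called in 12 of 16 fits without 1 array, with limma adjusted p from 0.0257 to 0.101, and not without PBS control blocker array 1 or 2 or bleomycin control blocker array 1 or 3. Its second spot was near the dim mark (mean 6.23) with a change of 0.04, and averaging both spots gave -0.23 (limma adjusted p = 0.629). Gpam, the mitochondrial acyltransferase of the first step from glycerol phosphate, had a change of -0.39 (SE 0.122, limma adjusted p = 0.114), also without overlap. Stard4, which carries cholesterol between membranes, had a change of 0.25 (SE 0.185, limma adjusted p = 0.539).

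Insig1, whose protein retains the SREBP-Scap complex, was the only SREBP control gene called. It was 8.66 and 9.53 in the PBS arrays and 8.24, 8.44, 8.31, 8.54, 8.27 and 8.28 in the bleomycin arrays with the control blocker. PBS array 2 lay far above all others, while PBS array 1 was just above the highest bleomycin array. The change was -0.75 (SE 0.17, interval -1.11 to -0.38, limma adjusted p = 0.0352). Without PBS control blocker array 2 the change was -0.31 (limma adjusted p = 0.475) and without array 1 it was -1.18 (adjusted p = 0.000739). Insig1 was called in 7 of the 16 fits without 1 array.

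The other SREBP control genes were not called. Srebf1 and Srebf2 encode the SREBP factors. Srebf1 had a change of -0.05 (SE 0.143) and Srebf2 of -0.51 (SE 0.287, limma adjusted p = 0.411). The Srebf2 value followed PBS control blocker array 2, at 10.99 against 9.78 in PBS array 1 and 9.67 to 10.26 after bleomycin, and a second Srebf2 spot had a change of 0.04. Without that array its change was 0.09 (limma adjusted p = 0.944). Scap had a change of 0.15 (SE 0.125) and Insig2, which acts like Insig1, of 0.16 (SE 0.165).

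The 6 measured mevalonate and isoprenoid genes had changes between -0.11 and 0.33, and 0 were called. Hmgcs1, the HMG-CoA synthase, was 13.11 and 12.30 with PBS and 12.93 to 13.16 (median 13.04) with bleomycin, so the bleomycin arrays lay around PBS array 1 and above array 2. Its change was 0.33 (SE 0.173, limma adjusted p = 0.366), and -0.07 without PBS array 2 (adjusted p = 0.922). The kinases had changes of 0.17 for Mvk (a second spot had -0.18) and 0.04 for Pmvk, and the decarboxylase Mvd had -0.10 (0.55 without PBS array 2, limma adjusted p = 0.486). The isomerase Idi1 had a change of 0.03, and Fdps, which makes farnesyl diphosphate, one of -0.11 (SE 0.0772).

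From squalene to cholesterol, 0 of 10 genes were called and the changes ran from -0.46 to 0.39. Cyp51, the lanosterol demethylase, had the smallest p among them, with levels of 8.18 and 7.74 with PBS and 8.09 to 8.53 (median 8.37) with bleomycin. Its change was 0.39 (SE 0.154, limma adjusted p = 0.219). The groups overlapped, since bleomycin control blocker array 4 lay below PBS array 1, and the change was 0.17 without PBS array 2 (limma adjusted p = 0.805). Fdft1, the squalene synthase, had a change of -0.24, Sqle, the epoxidase, of 0.11 and Lss, the lanosterol synthase, of -0.31. Msmo1 (0.02), Nsdhl (-0.34), Hsd17b7 (0.15), Ebp (0.35) and Sc5d (0.06) act between lanosterol and the last reductase, and their limma adjusted p was 0.322 or higher. Dhcr7, that reductase, varied most, from 8.24 to 10.32 over all arrays, with a change of -0.46 (SE 0.467). Without PBS array 2 the change was 0.32 for Dhcr7, 0.04 for Nsdhl, 0.21 for Fdft1 and -0.07 for Lss (limma adjusted p 0.813 or higher).

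Whether sterol genes were called depended on the PBS arrays. Without PBS control blocker array 1, which leaves array 2 alone in its group, limma called Hmgcs1, Mvk, Cyp51 and Ebp higher and Nsdhl, Srebf2, Insig1, Acly and Gpam lower, along with 4075 genes in all (12.5% of all genes higher and 7.58% lower). That fit takes the spread of the lone array from the rest. Without array 2 instead, 1 member (Mlxipl) was called lower and 0 higher, with 91 genes called in all. PBS control blocker array 2 held the lowest of all 16 levels for 9 members (25.6% of all genes did so there) and the highest for 6 (14.5%).

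**Figure D3:**
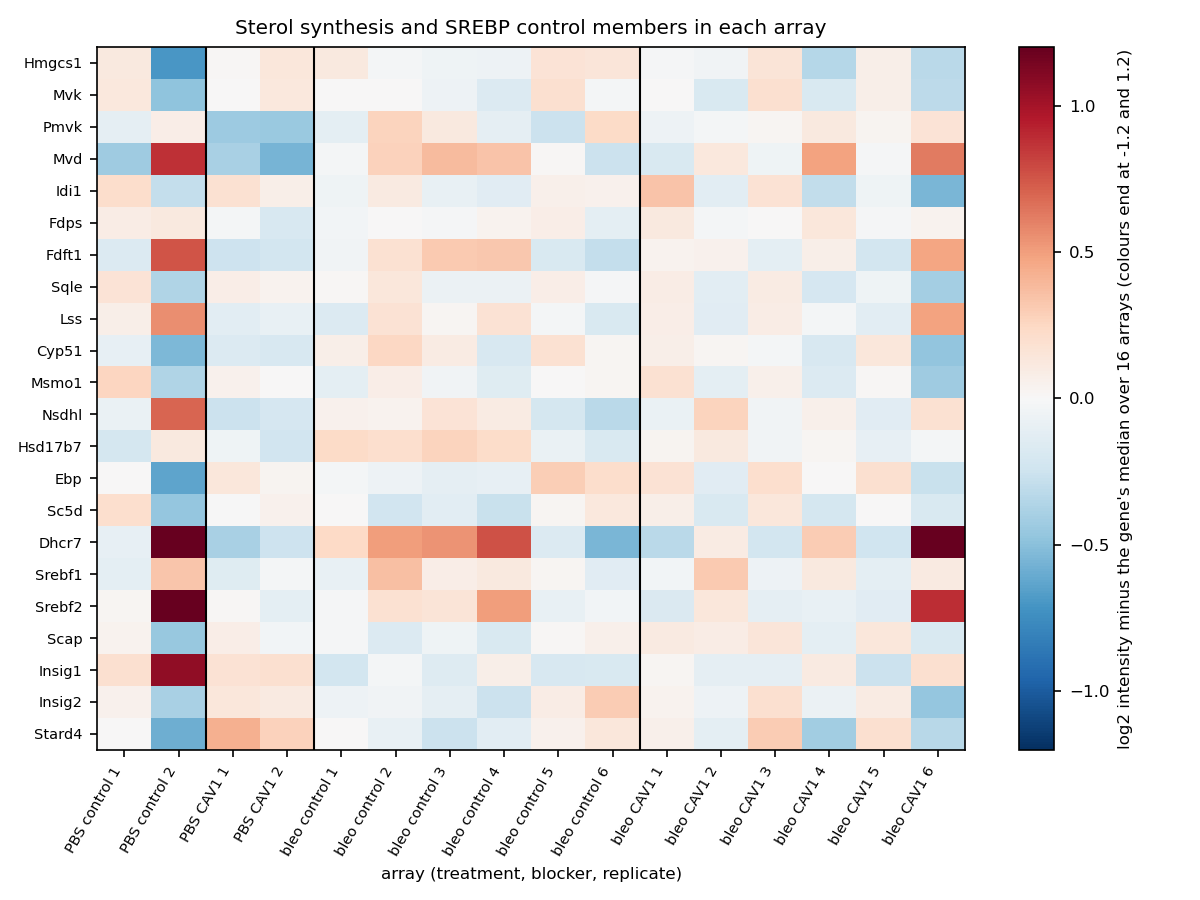
Log2 intensity of the sterol synthesis and SREBP control members and Stard4 in each array, minus the gene's median over 16 arrays (colour scale ends at -1.2 and 1.2; vertical lines part the groups). PBS control blocker array 2 and bleomycin CAV1 blocker array 6 share high Dhcr7, Srebf2, Mvd, Fdft1 and Lss and low Idi1, Sqle, Cyp51 and Msmo1.

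Markers of other cells moved with bleomycin under the control blocker. The mean of 12 adipocyte markers was 11.41 and 10.98 in the PBS arrays and 9.31 to 10.43 (median 9.74) in the bleomycin arrays, without overlap. All 12 had a negative change (median -1.30), 10 at an unadjusted p under 0.05 in limma and 0 after adjustment. Adipoq ranged from 9.67 to 12.30 over all arrays and Lep, an adipocyte hormone, from 5.80 to 6.35, near the dim mark. Ucp1 had the widest range of the 12, from 6.26 to 12.63, and so weighed heavily in their mean. The mean of 10 monocyte-derived macrophage markers was 10.66 and 10.78 with PBS and 11.77 to 12.14 after bleomycin, with all 10 changes positive (median 1.17) and 5 called higher. That of 8 resident alveolar macrophage markers was 12.90 and 12.94 with PBS and 12.24 to 12.45 after bleomycin, with 7 changes negative (median -0.54) and 2 called lower. That of the 12 skeletal muscle markers was 12.51 and 10.14 with PBS and 7.09 to 10.48 after bleomycin, with all 12 changes negative (median -1.88) and 0 called. With the skeletal muscle mean as a covariate, limma still called Acly (-0.52, adjusted p = 0.0401) and Lpin1 (-0.58, 0.0384) lower, but not Insig1 (-0.81, 0.0555) or Mlxipl (-0.99, 0.126). With the adipocyte mean as a covariate, which left 8 genes called in all, the changes were -0.40 for Acly, -0.54 for Mlxipl, -0.49 for Lpin1 and -0.70 for Insig1, with limma adjusted p of 0.417, 0.725, 0.41 and 0.434. RNA integrity moved with the group too. Arrays 1 and 5 of bleomycin with the control blocker had a value of 10 and the rest had 9. Without both arrays the 4 changes were -0.42, -1.19, -0.44 and -0.70. That fit called 0 members and 15 genes in all, against 489 genes with all arrays. The part of macrophage markers in these changes was not tested.

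Over the 12 bleomycin arrays, some members followed the adipocyte mean. Acaca had a Pearson r of 0.90 and a Spearman rho of 0.85 (permutation p adjusted over 32 relations 0.00032 and 0.0285), and r was 0.89 without the 2 arrays farthest from the median. Mlxipl had 0.82 and 0.80 (permutation p adjusted 0.0132 and 0.0432, r 0.78 without those 2). Elovl6 had an r of 0.80 and rho of 0.69 (permutation p adjusted 0.0132 and 0.123, r 0.71 without) and Nsdhl 0.75 and 0.71 (permutation p adjusted 0.0422 and 0.123, r 0.64 without). These 4 of the 32 members passed by Pearson's r and 2 by Spearman's rho. The correlation was not run over all genes, so it is not known how common such a relation was among them. Without those 2 arrays only Acaca passed by Pearson's r (permutation p adjusted 0.0234, against 0.0909 for Mlxipl, 0.176 for Elovl6 and 0.196 for Nsdhl). Acly (r 0.41), Lpin1 (0.02) and Fasn (0.67, permutation p adjusted 0.0985) did not. The arrays were unevenly spread, with 4 at 9.30 to 9.32 and 8 at 9.90 to 11.28. Within those 8, r was 0.83 for Acaca, 0.85 for Mlxipl, 0.82 for Elovl6 and 0.54 for Nsdhl, and none passed an exact permutation test after adjustment (0.121, 0.121, 0.121 and 0.589). Within the 6 arrays of each blocker, r for Acaca was 0.94 (control) and 0.88 (CAV1), and for Mlxipl 0.74 and 0.80. Values of that size also arose in members that did not pass. With the control blocker r was -0.98 for Idi1, -0.93 for Scd2, -0.87 for Msmo1 and 0.87 for Scd1. With the CAV1 blocker these were -0.14, -0.43, -0.33 and 0.14.

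**Figure D4:**
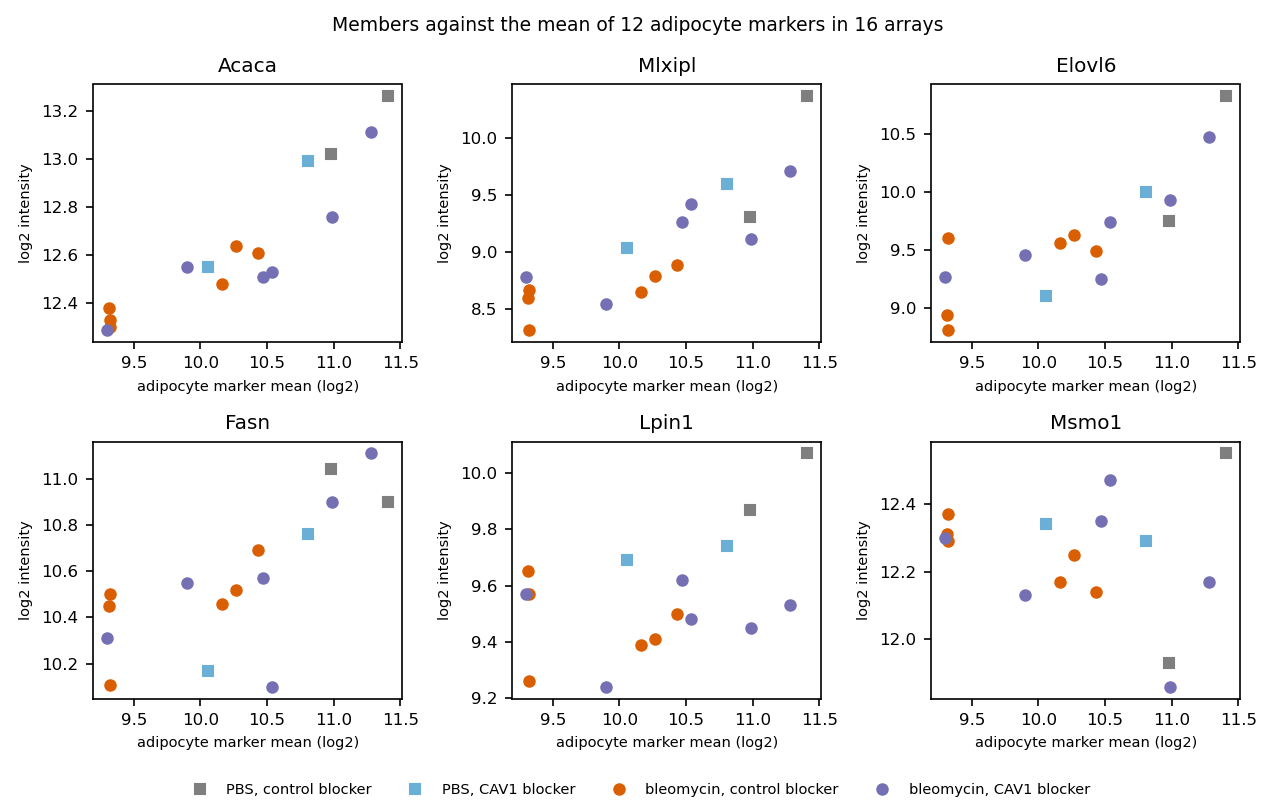
Log2 intensity of 6 members (vertical) against the mean of 12 adipocyte markers (horizontal) in 16 arrays, coloured by group; axes do not start at 0. Acaca, Mlxipl and Elovl6 rise along the horizontal axis, while Lpin1 has an r of 0.02 over the 12 bleomycin arrays and Msmo1 one of -0.45.

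Of 50 measured genes with related roles, 1 was called higher and 1 lower with bleomycin under the control blocker, against 1.96% and 0.448% of all genes. Abca1, the cholesterol exporter induced by LXR receptors, rose by 0.85 (SE 0.177, limma adjusted p = 0.0255). Acss2, which makes acetyl-CoA from acetate, fell by 0.75 (SE 0.15, limma adjusted p = 0.0226). The 7 measured genes that supply acetyl-CoA, NADPH or malonyl-CoA all had a negative change (median -0.58). The largest was that of Thrsp, a lipogenic regulator, at -2.09 (limma adjusted p = 0.137). Of 9 genes of triglyceride and cholesteryl ester synthesis, 8 had a negative change (median -0.43) and 0 were called. The 5 measured fatty acid oxidation genes also had negative changes (median -0.25), with 0 called. The 5 measured genes of SREBP processing and sterol sensing all had positive changes (median 0.14), with 0 called. Of the related genes, none was called in the other comparisons.

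Under the CAV1 blocker, bleomycin changed no member at an adjusted p under 0.05 in limma, where 0.345% of all genes were called higher and 0.172% lower, 0.517% in all. At an unadjusted p under 0.05, 2 members were higher and 2 lower, against 7.15% and 7.67% of all genes. In 5 members every bleomycin array lay above both PBS arrays and in 2 below, against 8.38% and 12.3% of all genes. The members' median was 0.02 and that of all genes -0.006. Pmvk came closest. It was 12.39 and 12.38 with PBS and 12.77, 12.81, 12.85, 12.95, 12.86 and 12.99 with bleomycin, above both PBS arrays throughout. The change was 0.48 (SE 0.125, limma adjusted p = 0.0883), and a second spot had 0.52. It was called without bleomycin CAV1 blocker array 1 (0.51, limma adjusted p = 0.0482). Mvd had a change of 0.64 (SE 0.278, limma adjusted p = 0.291), and 0.55 without bleomycin CAV1 blocker array 6 and PBS control blocker array 2 (adjusted p = 0.139).

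The members called under the control blocker had the following values here. Acly was 13.87 and 14.02 with PBS and the CAV1 blocker and 13.53 to 13.79 (median 13.60) after bleomycin, again without overlap. Its change was -0.32 (SE 0.0966, limma adjusted p = 0.132). Lpin1 was 9.69 and 9.74 with PBS and 9.24 to 9.62 (median 9.51) after bleomycin, a change of -0.23 (SE 0.111, limma adjusted p = 0.349). Mlxipl had a change of -0.18 (SE 0.289), Insig1 of -0.21 (SE 0.17), Acaca of -0.15 and Fasn of 0.12. Here the adipocyte means were 10.06 and 10.81 with PBS and 9.30 to 11.28 with bleomycin, so the groups overlapped. Other markers separated them. The skeletal muscle mean was 6.91 and 7.09 with PBS and 7.24 to 11.28 with bleomycin, with all 12 changes positive (median 3.12), 10 at an unadjusted p under 0.05 in limma and 0 called. That of 10 stratified squamous epithelium markers was 6.27 and 6.27 with PBS and 6.44 to 9.84 with bleomycin, with 8 positive (median 2.74), 7 at an unadjusted p under 0.05 and 1 called. The monocyte-derived macrophage mean was 10.30 and 10.32 with PBS and 10.53 to 11.85 with bleomycin, with 9 of 10 positive (median 1.04) and 1 called. With the skeletal muscle mean as a covariate the change of Pmvk was 0.68 (limma adjusted p = 0.133), that of Acly -0.25 and that of Elovl6 -0.58 in place of 0.14. The part of the squamous and macrophage markers was not tested.

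The difference between the bleomycin effects was tested as an interaction. It gave 0 calls among the members and 0% of all genes in limma, and at an unadjusted p under 0.05 it gave 9 members higher and 1 lower, against 3.22% and 6.01% of all genes, 9.22% in all. The median was 0.21 for the members and -0.048 for all genes. Mlxipl had an interaction of 1.01 (interval 0.14 to 1.88), Acaca of 0.54 (0.01 to 1.07), Elovl6 of 1.09 (0.02 to 2.16), Insig1 of 0.54 (0.03 to 1.05) and Gpam of 0.42 (0.05 to 0.79), each with a limma adjusted p of 0.497. The other 4 of these 9 members were sterol pathway genes, with the same limma adjusted p. They were Pmvk at 0.45 (0.07 to 0.83), Fdps at 0.26 (0.03 to 0.49), Lss at 0.48 (0.01 to 0.96) and Nsdhl at 0.61 (0.09 to 1.14). Stard4 was the one in the other direction at -0.66 (interval -1.21 to -0.10). The effects under the 2 blockers are therefore not shown to differ. Without PBS control blocker array 1, limma called 6 members higher and 2 lower in this test, along with 3011 genes in all (5.42% of all genes higher and 9.41% lower). Without array 2 it called 0 members and 41 genes, and without array 2 and bleomycin CAV1 blocker array 6 together 0 members and 45 genes. In that last fit the interaction was 1.55 for Mlxipl, 0.63 for Acaca, 1.58 for Elovl6, 0.06 for Insig1, 0.20 for Gpam and -0.30 for Stard4, the median of the members was 0.08, and 2 members were higher at an unadjusted p under 0.05.

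Markers moved in the interaction too. All 12 skeletal muscle markers had a positive interaction at an unadjusted p under 0.05 in limma (median 4.57), as did 7 of 10 stratified squamous epithelium markers (median of the 10 3.32). All 12 adipocyte markers were positive (median 0.74), 3 of them at an unadjusted p under 0.05, and 0 markers of these lists were called. With the skeletal muscle mean as a covariate the interaction was -0.06 for Elovl6, 0.27 for Acaca, 0.50 for Mlxipl and 0.70 for Insig1, with limma adjusted p of 0.865 or higher. The part of the squamous markers was not tested.

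After bleomycin, Gpam was the single member that differed between the blockers. In limma, 1 member was called higher and 0 lower, against 1.2% and 0.414% of all genes, 1.61% in all. At an unadjusted p under 0.05, 2 members were higher and 0 lower, against 4.48% and 4.6% of all genes, 9.08% in all. The members' median difference was 0.00 and that of all genes -0.011. Gpam was 8.04, 8.26, 8.20, 8.17, 7.95 and 8.23 with the control blocker and 8.61, 8.90, 8.60, 8.66, 8.64 and 8.95 with the CAV1 blocker. Every CAV1 blocker array lay above every control blocker array, a separation seen upward in 1.5% of all genes. In the PBS arrays Gpam was 8.35 and 8.72 with the control blocker and 8.65 and 8.75 with the CAV1 blocker. The difference after bleomycin was 0.59 (SE 0.0865, interval 0.40 to 0.77, limma adjusted p = 0.00185), or 1.5-fold higher.

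The Gpam difference was called in all 16 fits without 1 array (0.54 to 0.61, limma adjusted p from 0.000528 to 0.00661). With the adipocyte mean as a covariate it was 0.54 (limma adjusted p = 0.00951), and without PBS control blocker array 2 and bleomycin CAV1 blocker array 6 it was 0.54 (adjusted p = 0.000765). It depended on the spot. The spot used takes its name from a cDNA clone record, and a second spot, named from the RefSeq transcript, was 0.16 higher with the CAV1 blocker (SE 0.0916, limma adjusted p = 0.684 over 30638 spots). The mean of both gave 0.37 (limma adjusted p = 0.0333).

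Mlxipl had the next smallest p after bleomycin. It was 8.32 to 8.89 (median 8.66) with the control blocker and 9.42, 9.71, 9.27, 8.55, 8.78 and 9.12 with the CAV1 blocker. The groups overlapped through CAV1 blocker arrays 4 and 5. The difference was 0.49 (SE 0.204, interval 0.05 to 0.92, limma adjusted p = 0.453), and 0.21 with the adipocyte mean as a covariate. Elovl6 differed by 0.35 (interval -0.18 to 0.88) and Acaca by 0.17 (interval -0.10 to 0.43), and Acly by 0.12 (interval -0.03 to 0.26). The 16 sterol genes had differences between -0.15 for Cyp51 and 0.08 for Nsdhl, with 0 called. All 12 adipocyte markers were higher with the CAV1 blocker (median 0.48, 0 called in limma), and 9 of 10 monocyte-derived macrophage markers were lower (median -0.50, 1 called). The part of macrophage markers in the Gpam difference was not tested.

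After PBS the blockers were compared with 2 arrays each, and no member was called, against 0.276% of all genes higher and 0.0345% lower in limma, 0.31% in all. At an unadjusted p under 0.05, 1 member was higher and 5 were lower, against 8.26% and 4.55% of all genes, 12.8% in all. In 4 members both CAV1 blocker arrays lay above both control blocker arrays and in 10 below, against 23.7% and 14.7% of all genes. Stard4 was 10.19 and 9.60 with the control blocker and 10.62 and 10.47 with the CAV1 blocker, a difference of 0.65 (SE 0.226, limma adjusted p = 0.337). Pmvk was 12.72 and 12.91 against 12.39 and 12.38 (difference -0.43, SE 0.153), and Nsdhl 9.28 and 10.05 against 9.10 and 9.15 (difference -0.54, SE 0.213). The groups did not overlap in any of these 3. Without PBS control blocker array 2 the differences were 0.35 for Stard4, -0.34 for Pmvk and -0.16 for Nsdhl (limma adjusted p 0.884 or higher). Without array 1 they were 0.95 for Stard4 (limma adjusted p = 0.0258) and -0.92 for Nsdhl (adjusted p = 0.0168), in a fit that called 5 members higher and 6 lower and 12.5% and 7.27% of all genes. Skeletal muscle markers separated the same arrays, with means of 12.51 and 10.14 against 6.91 and 7.09. Blocker and muscle content cannot be told apart after PBS, where both arrays of each blocker lay on the same side.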

How the data were processed

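Whole-lung total RNA was measured on single-colour Agilent arrays in 16 samples. The deposited values are log2 intensities, made with limma per the submitters' processing notes. Its version, the background correction and any detection marks are not given in the sources used here. Array medians were nearly equal, as after normalization between arrays. Values were used as deposited, and precision is limited by how many arrays there were.

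Of 62976 spots, 31465 carried 1 gene symbol in the platform annotation. The other 31511, with no symbol or more than 1, were set aside. RefSeq accessions (GRCm38.p6) matched 29050 spots and changed 2933 symbols. The spot with the highest mean stood for a gene, and genes above the array's 25th percentile in at least 2 arrays were tested. One mean per group was fitted to 16 arrays with limma 3.58.1 on R 4.3.3 (12 residual degrees of freedom), two-sided, with Benjamini-Hochberg adjustment over 20304 genes and calls at 0.05. The fit was tested on simulated data.

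The members, the related genes, the markers and the rule for naming genes were chosen with earlier results of these data known. Every member is accounted for. Values in each array, or a group's range and median, are given for those called and for some of those nearest to a call. In the main comparisons, member counts stand beside the same counts over all genes. The correlations were run on the members only. Correlations used 100000 permutations over 12 arrays and were adjusted over 32 members. Alternatives covered the dim filter, the spots of a gene, median centring, quantile normalization applied again, moderation with trend and robust settings, the arrays fitted, the replicate number, marker covariates, RNA integrity and each array left out. Leaving out PBS control blocker array 2 with bleomycin CAV1 blocker array 6, and the correlation within 8 arrays, were added after seeing the data. Promoter windows are RefSeq's, and no protein sequences were used here.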

Additional observations from a re-analysis of the deposited data

Results flagged for a closer look

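Among 64 sets of 6 bleomycin arrays (32 members, 2 blockers), 3 had an end array whose gap to its neighbour, divided by the range, exceeded Dixon's 95% critical value, which chance alone passes in about 5% of sets. Dhcr7 was 10.32 in bleomycin CAV1 blocker array 6, and the next array of the group was 9.09. Srebf2 was 10.64 in the same array, and the next was 9.89. Scd1 was 14.80 in bleomycin CAV1 blocker array 1, and the next lowest was 15.58. Fdps was lower in every bleomycin array than in both PBS arrays with the control blocker (change -0.11) and higher than in both with the CAV1 blocker (0.15). Its nearest bleomycin and PBS arrays were almost tied, at 12.81 and 12.82 with the control blocker and 12.71 and 12.71 with the CAV1 blocker. Its interaction of 0.26 had a limma adjusted p of 0.497. The share of all genes whose groups parted in opposite directions under the blockers was not counted.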

How the results depend on the processing

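With bleomycin under the control blocker, 4 members were called lower among 489 genes called in all. A fit to the compared arrays only called 1 member lower (Acaca) among 215 genes. The adipocyte covariate left 0 members among 8 genes, and the skeletal muscle covariate 2 among 236. Among arrays with a skeletal muscle mean above 9.5, 0 members and 9 genes were called, and without both arrays of RNA integrity 10, 0 members and 15 genes. Calls thus fell over all genes in these fits. Acly, Lpin1, Insig1 and Mlxipl changed by -0.48, -0.51, -0.75 and -1.18 in the compared arrays only (adjusted p 0.0681 to 0.135 in limma), and by -0.53, -0.58, -0.75 and -1.09 above 9.5. Leaving out 1 array gave 1 to 5 called lower and 0 to 4 called higher. With bleomycin under the CAV1 blocker, 0 to 1 were then called higher. For the blockers after PBS, 0 to 5 were called higher and 0 to 6 lower, and for the interaction 0 to 6 higher and 0 to 2 lower. Each upper end came without PBS control blocker array 1, where 4075 (bleomycin), 4024 (after PBS) and 3011 genes (interaction) were called in all, except that of Pmvk, which came without bleomycin CAV1 blocker array 1. Without PBS control blocker array 2 the genes called were 91, 168 and 41.

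The median of the members with bleomycin under the control blocker was -0.02 and moved to -0.07 with the muscle covariate and without the 2 arrays together, and to between -0.11 and -0.01 with 1 array left out. After PBS it was -0.15, and -0.07 with the adipocyte covariate, -0.05 with the muscle covariate, -0.08 without the 2 arrays together and -0.15 to -0.08 with 1 left out. The interaction median of 0.21 became 0.08 with the adipocyte covariate and 0.08 without the 2 arrays, and 0.10 to 0.24 with 1 left out. Of the 4 correlations with the adipocyte mean, 1 (Acaca) passed without the 2 farthest arrays and 2 (Acaca and Mlxipl) as deviations from group means. No member called in limma changed direction in the alternatives run, and Gpam after bleomycin was called in all 29. The causes of these shifts were not tested.

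The replicate number as a block left 0 members called with bleomycin under the control blocker and kept Gpam (limma adjusted p = 0.00385). The changes were -0.47 for Acly, -0.49 for Lpin1, -0.76 for Insig1 and -1.06 for Mlxipl (adjusted p 0.266 to 0.405), and 1 gene was called in all. Deviations from the group means of arrays of the same number correlated at -0.69 to 0.44 (median 0.04) over 16 pairs. Over the 6 such pairs after bleomycin the correlations were -0.69 to 0.35 (median -0.09). Arrays of different number correlated at -0.69 to 0.81 (median -0.01) over 72 pairs. In a group of 2 arrays the deviations mirror each other, so pairs with PBS arrays cannot decide whether the numbers are a pairing. The 6 pairs after bleomycin are few, and their median was not above that of arrays of different number. The labels do not say what the numbers stand for.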
